A study of Mus musculus with 27 samples.

Results

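This account covers 10 keratin genes chosen by symbol, with earlier results of these data known: Krt7, Krt8, Krt18, Krt19, Krt20, Krt23 and Krt80 from simple and other epithelia, and Krt4, Krt13 and Krt17 from squamous or regenerating epithelia. They are 10 of the 54 keratin symbols among the 56691 genes of the deposited table. Of these, 8 had enough reads to be tested and 2, Krt13 and Krt17, did not.

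The libraries are bulk RNA-seq of mouse gastric epithelial organoids, which are small epithelial cultures grown in Matrigel in a proliferating medium. The 21 libraries form 7 groups of 3. KO P5, KO P10 and KO P15 are organoids of Mist1+ origin from Gpx4F/F;Mist1Cre/ERT2;RFPLSL mice, labelled Gpx4 KO, at passages 5, 10 and 15. WT P5, WT P10 and WT P15 are organoids of Mist1+ origin from Mist1Cre/ERT2;RFPLSL mice, labelled WT, at the same passages. Mist1- P5 are organoids labelled as derived from Mist1- cells, also labelled WT, at passage 5. The Cre and the reporter are shared by the KO and WT mice: a tamoxifen-dependent Cre at the Mist1 locus switches on red fluorescence in Mist1-expressing cells, and in the KO mice it also excises the floxed Gpx4, the enzyme that reduces lipid peroxides in membranes. The labels describe a sort of RFP+ cells from adult stomach for every organoid group, and how Mist1- cells were obtained is not given in the sources used here. Neither is the number of mice, or whether the 3 libraries of a group came from separate cultures, so a p-value measures only the spread between these libraries.

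Keratins are the intermediate filament proteins of epithelial cells. A type I (acidic) keratin always pairs with a type II (basic) keratin, and the pair tells much about the epithelium: KRT8 with KRT18 is the ground pair of simple epithelia such as gastric glands, KRT7 and KRT19 are added in ducts and surface or metaplastic cells, and KRT20 marks differentiated gut surface cells. KRT4 with KRT13 is the pair of wet, non-keratinising squamous epithelium such as the oesophagus, and in the mouse the upper stomach is also lined by squamous epithelium. KRT17 is induced in wounded or stressed skin, and KRT5 with KRT14 marks the basal layer of squamous epithelia.

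The type II members Krt80, Krt7, Krt4 and Krt8 and the type I member Krt18 lie on chromosome 15, and the type I members Krt20, Krt23, Krt13, Krt19 and Krt17 lie on chromosome 11. In the GRCm38 annotation (GENCODE M21), Krt8 at chr15:101996698-102004482 on the minus strand and Krt18 at chr15:102028180-102032027 on the plus strand are 23.7 kb apart, Krt20 and Krt23 are 39.8 kb apart, Krt80 and Krt7 are 40.9 kb apart, and Krt13 and Krt19 are 19.2 kb apart. The promoter windows below, 250 bases before to 50 bases after the RefSeq start on GRCm38.p6, are shown because Krt8 and Krt7, a type II pair of abundant keratins, and Krt20 differed between groups by very different amounts. Krt20 is at chr11:99438104-99438403 on the minus strand, with its TATAAA match in capitals. Krt8 is at chr15:102004293-102004592 on the minus strand, with both of its overlapping TATAAA matches in capitals. Krt7 is at chr15:101412153-101412452 on the plus strand, with its GGGCGG matches in capitals.
Krt20: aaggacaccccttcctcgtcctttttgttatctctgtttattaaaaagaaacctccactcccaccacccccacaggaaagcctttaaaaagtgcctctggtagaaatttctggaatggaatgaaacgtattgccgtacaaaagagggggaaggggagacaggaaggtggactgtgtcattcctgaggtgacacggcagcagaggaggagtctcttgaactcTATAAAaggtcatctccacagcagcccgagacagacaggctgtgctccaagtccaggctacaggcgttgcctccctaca
Krt8: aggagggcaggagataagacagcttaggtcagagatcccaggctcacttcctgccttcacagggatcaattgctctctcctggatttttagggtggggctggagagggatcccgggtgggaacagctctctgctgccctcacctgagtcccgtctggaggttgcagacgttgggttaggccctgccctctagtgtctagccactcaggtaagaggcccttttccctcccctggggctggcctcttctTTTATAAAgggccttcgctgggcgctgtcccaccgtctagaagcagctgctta
Krt7: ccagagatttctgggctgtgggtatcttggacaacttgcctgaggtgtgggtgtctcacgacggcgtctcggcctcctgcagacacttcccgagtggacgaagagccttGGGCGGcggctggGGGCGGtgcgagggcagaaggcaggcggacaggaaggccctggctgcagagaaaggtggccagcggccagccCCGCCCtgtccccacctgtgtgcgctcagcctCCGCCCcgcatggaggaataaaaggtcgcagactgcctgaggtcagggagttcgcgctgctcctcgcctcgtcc

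Motifs were searched on both strands: the box bound by TBP, spelled TATAAA, the box bound by SP1-type factors, spelled GGGCGG, and the AP-1 site, spelled TGANTCA. The Krt20 window held 1 TATAAA whose first base is at position -29 from the start, and no GGGCGG. Krt8 held TATAAA at positions -3 and -1 and no GGGCGG. Krt7 held GGGCGG at positions -141, -128, -56 and -24 and no TATAAA. Its window was also the richest of these in G and C, at 66.3%, against 58.0% for Krt8 and 50.0% for Krt20. The windows of Krt18 and Krt23 held none of the motifs, and both windows of Krt13 held TGANTCA. Among all 32851 RefSeq windows of the same length, TATAAA was in 13.6%, GGGCGG in 35.7% and TGANTCA in 7.81%. A window was found for 6 members, and Krt4, Krt17, Krt19 and Krt80 are named only. A match describes letters and is not a binding site.

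Some features of the libraries touch every result below. Depth ran from 13805585 to 19608956 counts per library. The WT P15 libraries stood apart from each other: the chi-square per degree of freedom between 2 of them was 17.2 to 79.8, against 1.57 to 2.64 in the 18 pairs within the other groups, and their replicate 1 was in both of the widest pairs. Their biological coefficient of variation was 21.1%, against 1.89% to 3.07% in the other groups. The fit shares its estimate of spread among all groups. Member calls at passages 5 and 10 that changed with WT P15 left out of the fit are therefore given both ways. Most results at passage 15 that use WT P15 are also given without its replicate 1. Tests of lists and of genes that are not members, among them Gpx4 and Bhlha15, are at passages 5 and 10 from the fit over all groups alone. A value that did not pass there is not given without WT P15. Gpx4, the targeted gene, averaged 58.8 ± 1.15, 56.3 ± 3.82 and 50.6 ± 1.5 FPKM in KO P5, P10 and P15, against 72.2 ± 2.86, 65.8 ± 3.65 and 83.6 ± 25.5 FPKM in WT P5, P10 and P15 (SD, n = 3 each). Its transcript was lower in KO at passages 5 and 15 (edgeR quasi-likelihood adjusted p = 0.0362 and 0.000215; 1.48e-06 at passage 15 without WT P15 replicate 1) and did not pass at passage 10 (0.0940), and gene-level counts do not show which exons remained. KO therefore stands for the label. Bhlha15, the gene of MIST1, averaged 1.51 ± 0.18 FPKM in WT P5 and 2.97 ± 0.61 FPKM in Mist1- P5, so the transcript was lower in the libraries labelled Mist1+ (adjusted p = 1.89e-05). Among 10 general epithelial markers, 0 were at 0 counts in any group, and Cdh1, the epithelial cadherin, averaged 241 to 305 FPKM. Fibroblast markers (8 genes) summed to 0.01 to 0.28 FPKM and endothelial markers (5 genes) to 0.02 to 0.35 FPKM, while the 7 immune markers summed to 2.31 to 13.7 FPKM. In bulk RNA, fewer cells of a type and less RNA per cell cannot be told apart.

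Levels are given as FPKM, the deposited count per kilobase of exon and 1000000 counts, so that genes can be compared. Krt19, Krt8 and Krt18 were the 18th, 21st and 24th most abundant genes of the table by mean FPKM, at 1195, 1067 and 952. Krt7 ranked 160th at 228 FPKM. Krt23 at 56.4, Krt20 at 25.2 and Krt80 at 10.6 FPKM were much lower. Krt4 ranked 2940th, by a mean that WT P15 set. Krt19, Krt8 and Krt18 together made up 88.0% to 92.5% of the summed FPKM of the members in single libraries. The 10 members held 99.5% to 99.9% of the FPKM of all keratin symbols and 0.490% to 1.22% of a library's counts.

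**Figure D1:**
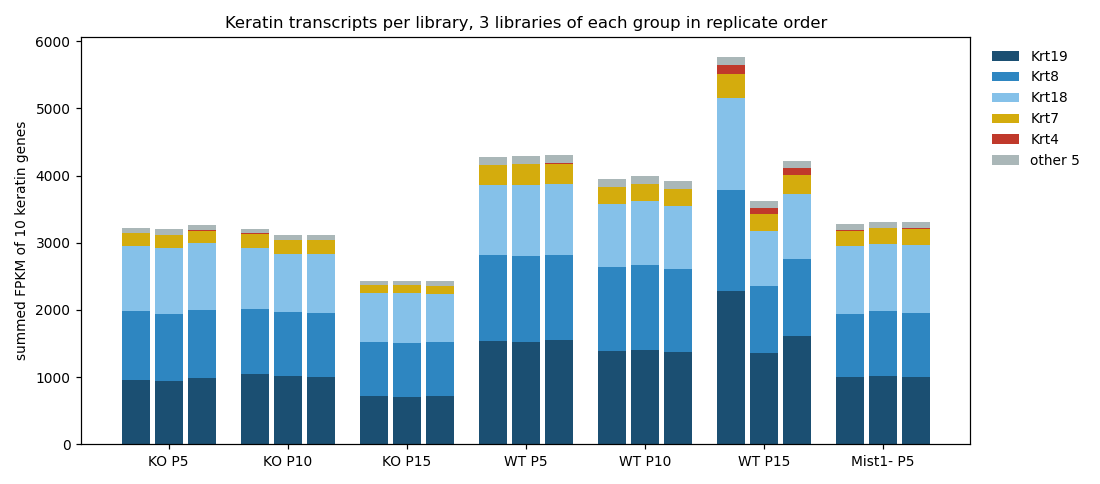
Summed FPKM of the 10 keratin genes (y axis) in each of the 21 libraries (bars, grouped on the x axis by group, in replicate order), stacked by gene. KO P15 bars are near 2430 FPKM and WT P15 bars spread from 3616 to 5772 FPKM, and the Krt4 share is visible in WT P15.

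The summed level of the 10 genes was 3228 ± 32.9, 3148 ± 54.6 and 2430.5 ± 3.41 FPKM in KO P5, P10 and P15, against 4288 ± 11.8, 3949 ± 38.0 and 4535 ± 1112 FPKM in WT P5, P10 and P15, and 3293 ± 18.8 FPKM in Mist1- P5 (SD, n = 3 each). Every KO library was below every WT library, and the Mist1- libraries were above the KO libraries and below the WT libraries. The ratio of type I to type II FPKM was 1.59 to 1.88 over the 21 libraries. Krt18 over Krt8, the partners of the ground pair, was as a mean of 3 libraries 0.968, 0.932 and 0.917 in KO P5, P10 and P15, against 0.830, 0.751 and 0.857 in WT P5, P10 and P15 and 1.06 in Mist1- P5. Krt19 over Krt18 was 0.975, 1.15 and 0.975 in KO P5, P10 and P15, against 1.46, 1.47 and 1.66 in WT P5, P10 and P15, and was 0.989 in Mist1- P5.

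In KO against WT organoids, Krt8, Krt19, Krt7, Krt20 and Krt23 fell at all 3 passages, and 0 members were called higher at any of them in the fit over all groups; with WT P15 left out of the fit, Krt4 was called higher at passage 10. At passage 5, 7 of the 8 tested members fell, 0 rose, and their median log2 change was -0.58, beside 0.00 over all genes tested. With WT P15 left out of the fit Krt18 was called lower too, in a fit that called 7095 of all genes in place of 4547. At passage 10, 5 fell and 0 rose with a median of -0.36 (6 fell and 1 rose with WT P15 left out of the fit, beside 27.3% and 24.7% of all genes). At passage 15 all 8 tested members fell, with a median of -0.81. Among all 15115 genes tested, 17.0% fell and 13.0% rose at passage 5, 18.5% fell and 15.9% rose at passage 10, and 25.3% fell and 23.6% rose at passage 15. The comparisons at the 3 passages use different libraries.

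**Figure D2:**
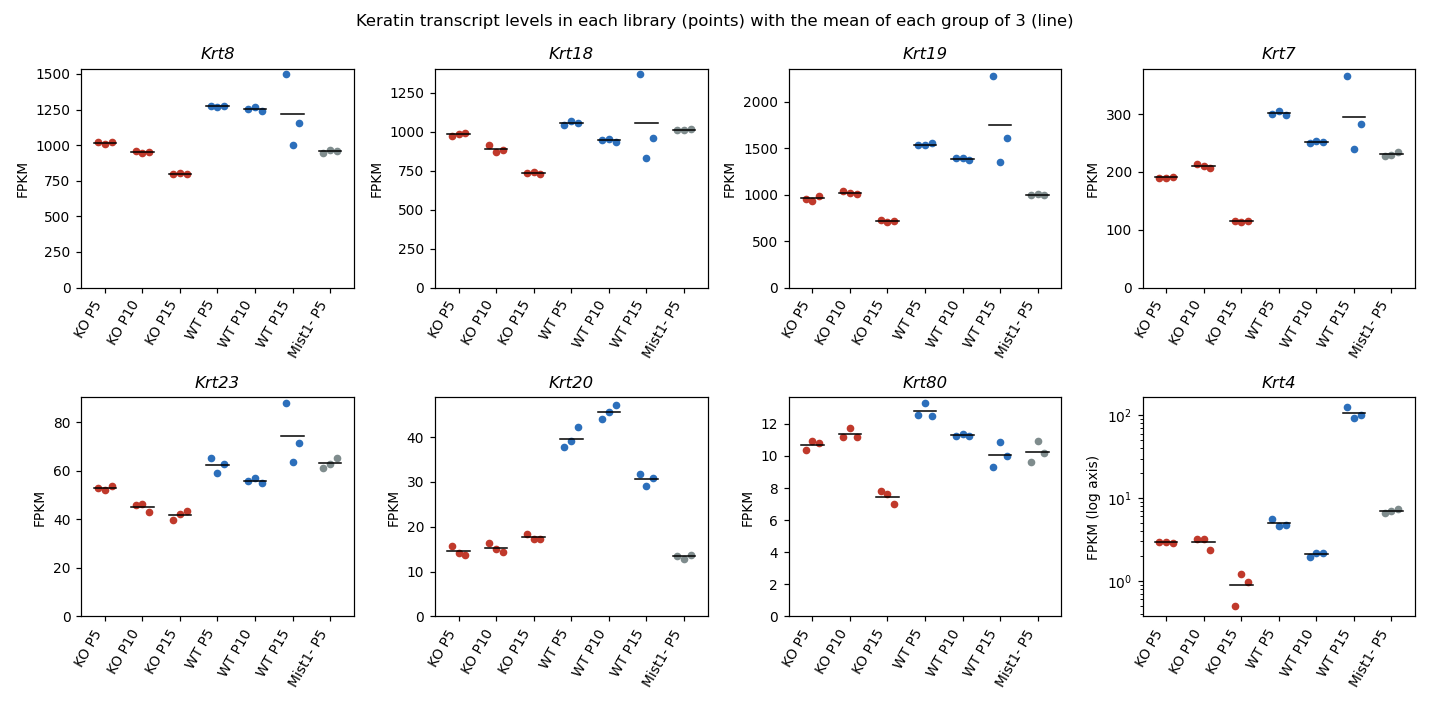
FPKM (y axis, log axis for Krt4 alone) of the 8 tested keratin genes in each library (points) with the mean of each group of 3 (line), groups on the x axis. KO P15 has the lowest group mean for Krt7, Krt8, Krt18, Krt19, Krt23, Krt80 and Krt4, and Krt4 in WT P15 is at 91.55 to 124.6 FPKM.

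Krt8, the type II partner of KRT18, had 1019.7, 1004 and 1021 FPKM in KO P5, 962, 946 and 951 in KO P10, and 795, 804 and 799.6 in KO P15. It had 1278, 1268 and 1271 FPKM in WT P5, 1252, 1270.1 and 1242 in WT P10, and 1502, 1001 and 1155 in WT P15. No KO library reached the lowest WT library of its passage. The log2 fold changes were -0.41 ± 0.10, -0.47 ± 0.10 and -0.61 ± 0.10 (± SE; edgeR adjusted p = 0.00236, 0.000659 and 3.36e-05 at passages 5, 10 and 15). Without WT P15 replicate 1 the passage 15 value was -0.41. Its pseudogene copy Krt8-ps, with which reads may be shared, held 0.226% as many counts.

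Krt18, the type I partner of KRT8, had 974, 987 and 988 FPKM in KO P5, 915, 870.0 and 880.0 in KO P10, and 733, 739 and 728 in KO P15, against 1044, 1068 and 1056 in WT P5, 942, 954 and 932 in WT P10, and 1371, 827 and 959 in WT P15. The groups did not overlap at any passage. Its log2 fold changes were -0.19 ± 0.12 and -0.16 ± 0.12 at passages 5 and 10 (adjusted p = 0.243 and 0.317), and -0.52 ± 0.12 at passage 15 (edgeR adjusted p = 0.00110). With the WT P15 libraries left out of the fit, the same values at passages 5 and 10, -0.19 and -0.16, had adjusted p = 1.59e-24 and 2.60e-18. Without WT P15 replicate 1 the passage 15 value was -0.26 (adjusted p = 6.83e-07), and with only KO P15 and WT P15 in the fit the adjusted p was 0.103.

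Krt19, the smallest keratin, a type I protein of ducts and metaplastic gastric cells, was the most abundant member in WT. It had 957, 936 and 982 FPKM in KO P5, 1044, 1016 and 1006 in KO P10, and 722, 708 and 715 in KO P15, against 1535, 1529 and 1553 in WT P5, 1389, 1395 and 1372 in WT P10, and 2278, 1353 and 1608 in WT P15. The highest KO library had 1044 FPKM and the lowest WT library had 1353. The log2 fold changes were -0.77 ± 0.12, -0.51 ± 0.12 and -1.29 ± 0.12 (edgeR adjusted p = 3.82e-05, 0.00198 and 2.86e-08), and the last was -1.03 without WT P15 replicate 1.

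Krt7, a type II keratin of ducts and simple glandular linings, had 189.7, 190.2 and 192 FPKM in KO P5, 213, 210.3 and 208 in KO P10, and 115, 114 and 116 in KO P15. It had 300.4, 305 and 299 FPKM in WT P5, 250.2, 254 and 252 in WT P10, and 366, 239 and 283 in WT P15. The KO and WT libraries did not overlap at any passage. The log2 fold changes were -0.75 ± 0.10, -0.33 ± 0.10 and -1.37 ± 0.10 (edgeR adjusted p = 6.00e-06, 0.0128 and 6.52e-10), and the last was -1.16 without WT P15 replicate 1. The antisense gene Gm671 overlaps Krt7 and held 0.131% as many counts. Whether counting used strand is not given in the sources used here.

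Krt20, a type I keratin of differentiated gut surface cells, showed the widest separation among the keratins of simple and other epithelia at passages 5 and 10. It had 15.7, 14.05 and 13.7 FPKM in KO P5, 16.5, 15.1 and 14.4 in KO P10, and 18.5, 17.3 and 17.3 in KO P15. It had 37.7, 39.1 and 42.2 FPKM in WT P5, 43.95, 45.6 and 47.1 in WT P10, and 31.8, 29.15 and 30.8 in WT P15. The highest KO library had 18.5 FPKM and the lowest WT library had 29.15. The log2 fold changes were -1.54 ± 0.07, -1.65 ± 0.07 and -0.79 ± 0.07 (edgeR adjusted p = 5.06e-13, 2.40e-13 and 1.18e-08). The WT P15 libraries were close together for this gene, and the passage 15 value without replicate 1 was -0.74. By group mean the order was WT P10, WT P5, WT P15, KO P15, KO P10, KO P5 and Mist1- P5, in which only KO P10 and KO P5, and KO P5 and Mist1- P5, overlapped as neighbours.

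Krt23, a type I keratin with a less settled role, had 52.85, 52.2 and 53.8 FPKM in KO P5, 45.8, 46.2 and 43.1 in KO P10, and 39.5, 42.2 and 43.5 in KO P15, against 65.1, 59.0 and 62.9 in WT P5, 55.6, 57.1 and 55.0 in WT P10, and 87.7, 63.6 and 71.25 in WT P15. It fell at all passages, with log2 changes of -0.32 ± 0.09, -0.39 ± 0.09 and -0.83 ± 0.09 (edgeR adjusted p = 0.00827, 0.00194 and 2.17e-07), and the last was -0.67 without WT P15 replicate 1. Krt80, a type II keratin of differentiating epithelium, had 10.4, 10.9 and 10.8 FPKM in KO P5, 11.2, 11.8 and 11.2 in KO P10, and 7.80, 7.64 and 6.98 in KO P15, against 12.6, 13.3 and 12.5 in WT P5, 11.2, 11.4 and 11.3 in WT P10, and 9.30, 10.9 and 9.98 in WT P15. The KO and WT libraries overlapped at passage 10 alone. Its log2 change was -0.35 ± 0.06 and -0.42 ± 0.06 at passages 5 and 15 (edgeR adjusted p = 9.41e-05 and 7.56e-06), and -0.06 ± 0.06 at passage 10 (0.439), where the sign turned with library totals as the only scaling (0.01). Its passage 15 value was -0.46 without WT P15 replicate 1. The antisense gene Gm35853, which overlaps Krt80, held 4.41% as many counts.

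**Figure D3:**
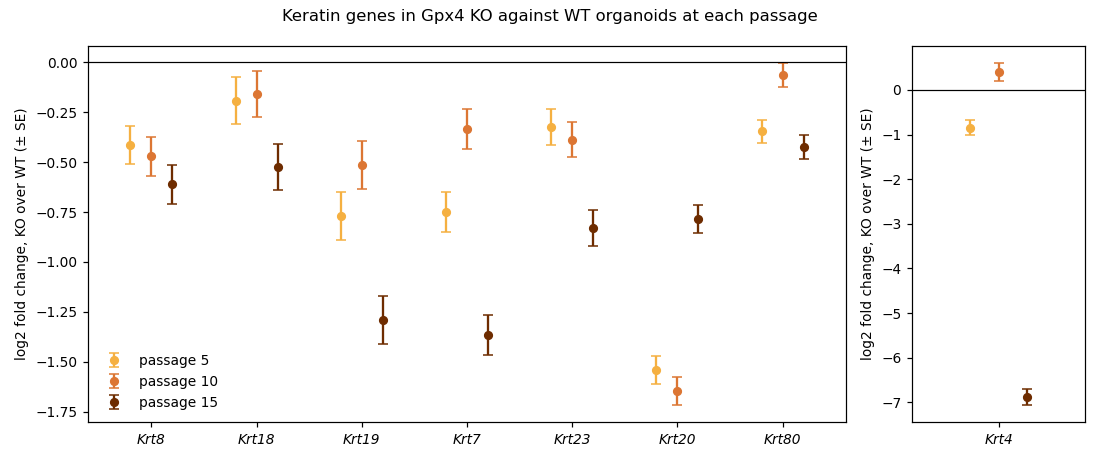
log2 fold change of KO over WT (y axis, ± SE) at passages 5, 10 and 15 for 7 keratin genes (left) and Krt4 on its own scale (right). The 7 genes on the left lie below 0 at each passage (Krt80 at passage 10 by -0.06, a value that is 0.01 with library totals alone). Krt20 reaches -1.65 at passage 10, and Krt4 reaches -6.88 at passage 15.

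Krt4, the squamous type II keratin, was a low transcript in 6 of the 7 groups, with 2.92, 2.98 and 2.90 FPKM in KO P5, 3.21, 3.23 and 2.36 in KO P10, and 0.49, 1.21 and 0.96 in KO P15, against 5.60, 4.55 and 4.71 in WT P5 and 1.95, 2.16 and 2.15 in WT P10. In WT P15 it had 124.6, 91.55 and 101.7 FPKM. No library of another group was above 7.39 FPKM. Krt4 was lower in KO at passage 5, with a log2 change of -0.84 ± 0.17 (edgeR adjusted p = 0.000738), was +0.40 ± 0.20 at passage 10 (0.125), where 3 of 16 alternatives called it higher in KO, and was -6.88 ± 0.18 at passage 15, a 118-fold lower level (edgeR adjusted p = 3.63e-17). With WT P15 left out of the fit the passage 10 value of 0.40 had adjusted p = 0.0202. Without WT P15 replicate 1 the passage 15 value was -6.73. Krt4 made up 6.53% ± 0.30 of type II FPKM in WT P15, against 0.0960% to 0.578% as the means of the other groups.

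KRT13, the usual type I partner of KRT4, did not appear with it in amount. Krt13 had 3 counts in KO P5, 12 in KO P10 and 3 in KO P15 summed over 3 libraries, against 25, 11 and 46 in WT P5, P10 and P15 and 18 in Mist1- P5. The 46 counts of WT P15 are 0.997 counts per 1000000, with an exact Poisson 95% interval of 0.730 to 1.33 that covers counting error only. The same libraries held 3181 to 3741 Krt4 counts each. Krt13 was below the count filter of the fit over all groups, which holds no test of it. For each comparison of KO with WT, 9 alternatives admitted it. It was called lower in KO in 9 of 9 at passage 5 (edgeR or limma adjusted p = 0.00148 to 0.0214). At passage 15 the same was so in 9 of 9 (3.44e-06 to 0.00129), and at passage 10 in 0 of 9. In WT passage 15 against 5 it was called higher in 1 of 9. These calls rest on few counts, and the 9 fits share most of their libraries, so they are not separate support. The highest counts were in WT P15, at 8 to 20 per library. With a library left out Krt13 met the filter it otherwise missed, and a gene can meet it through the group where it is highest. The passage 15 calls of those fits therefore add no support. With no filter the log2 changes were -3.15 and -3.90 at passages 5 and 15. Krt17 had 0 counts in 6 groups and 2 counts in Mist1- P5. The 0 counts in KO P5 have an exact Poisson 95% upper bound of 0.0700 counts per 1000000, and 3 counts there would be 0.0569.

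Other markers of squamous epithelium were read beside Krt4 from a list of 35 genes, of which 18 were tested. Among them 12 fell and 1 rose in KO against WT at passage 15 with a median log2 change of -0.82, 11 fell and 2 rose at passage 5 (median -0.60), and 8 fell and 2 rose at passage 10 (median -0.05). At passage 15 without WT P15 replicate 1, 19 were tested, of which 12 fell and 1 rose (median -0.74), beside 3377 and 3159 of all 15444 genes tested in that fit. Several defining basal markers were at or near 0: over all 21 libraries Trp63 had 4 counts, Krt14 had 7, Krt5 had 55, Dsg3 had 13 and Dsc3 had 1. Of the Krt5 counts, 19 were in WT P15 and 20 in Mist1- P5. Krt15, another keratin of the list, was low but tested, with 0.937 FPKM in WT P15 and 0.147 in KO P15. The summed level of the list was 243 to 248 FPKM in KO P15 and 427 to 548 FPKM in WT P15, with 13 and 9 of the 35 genes at 0 counts. Its members differed from each other: Tgm1, the cross-linking enzyme of the cornified envelope, averaged 0.723 FPKM in KO P15 and 8.16 in WT P15, while Cnfn, a cornified envelope protein, averaged 0.743 in KO P15 and 1.80 in WT P15 but 65.8 in WT P5. The 2 most significant at passage 15 were Anxa8, an annexin, with 24.7 FPKM in KO P15 and 120.2 in WT P15, and Pitx1, a transcription factor, with 10.8 FPKM in KO P15 and 0 in WT P15. The 10 intestinal markers summed to 251 to 257 FPKM in KO P15 and 443 to 611 FPKM in WT P15, with the intestinal regulator Cdx2 at 0.0200 and 14.4 FPKM. They did not all go 1 way: of 7 tested, 4 fell and 1 rose in KO against WT at passage 15. Without WT P15 replicate 1, 5 fell and 1 rose. In WT passage 15 against 5, 4 rose and 2 fell. The part of either list in the Krt4 level was not tested.

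Of the 44 other keratin symbols 6 were tested, and 14 had 0 counts in every library. All 6 were low, and all 6 fell in KO against WT at passage 15, with a median log2 change of -2.46. The log2 change was -3.13 for Krt79, -2.97 for Krt33a, -2.64 for Krt15, -2.28 for Krt87, -1.84 for Krt78 and -0.71 for Krt10. These 6 were also called without WT P15 replicate 1, from -3.06 for Krt79 to -0.61 for Krt10. At passages 5 and 10 Krt87, a hair keratin gene, rose instead (log2 change 0.51 and 1.10, edgeR adjusted p = 0.000916 and 9.36e-08), and Krt79 fell at passage 5 (-1.51, adjusted p = 0.00177).

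**Figure D4:**
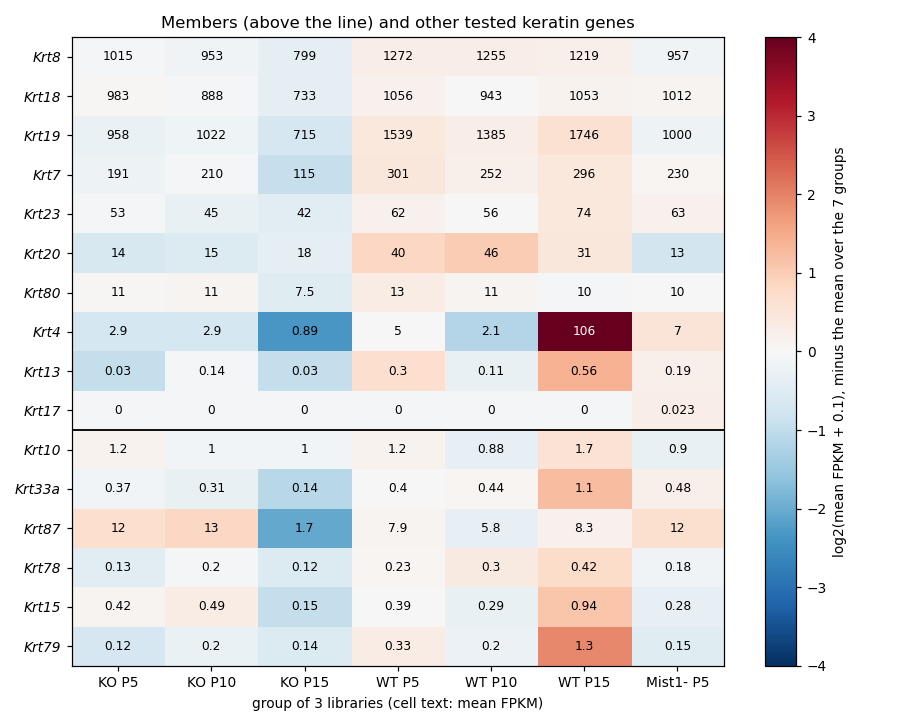
Mean FPKM (numbers in the cells) of the 10 members (above the line) and the 6 other tested keratin genes, by group (x axis); colour is log2(mean FPKM + 0.1) minus its mean over the 7 groups. Krt4 stands out in WT P15 at 106 FPKM, and Krt19, Krt23, Krt13, Krt10, Krt33a, Krt15, Krt78 and Krt79 also have their highest group mean there.

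Keratin filaments are anchored at desmosomes and hemidesmosomes, and genes of both were read from lists. Of 19 tested desmosome and linker genes, 7 fell and 0 rose in KO at passage 5, 7 fell and 0 rose at passage 10, and 10 fell and 2 rose at passage 15, with medians of -0.16, -0.15 and -0.27. Dsc2, a desmosomal cadherin, changed by -0.57 and -0.64 at passages 5 and 10, and Perp, a desmosomal membrane protein, by -0.82 at passage 15. Of 6 tested hemidesmosome genes, 3 fell at each passage, and 1 rose at passage 15. At passage 15 without WT P15 replicate 1, 10 desmosome and linker genes fell and 1 rose, and 4 hemidesmosome genes fell and 1 rose. Over all 15444 genes tested in that fit, 3377 fell and 3159 rose. Itgb4, the integrin that ties keratin to the basement membrane, changed by -0.33, -0.37 and -0.67. Glandular stomach markers had another pattern: of 18 tested, 13 fell and 3 rose in KO at passage 5, 14 fell and 2 rose at passage 10, and 14 rose and 0 fell at passage 15 (14 of 19 tested rose and 0 fell without WT P15 replicate 1). Gkn2, a secreted protein of surface mucous cells, averaged 319, 713 and 1632 FPKM in KO P5, P10 and P15, against 1530, 2306 and 296 FPKM in WT P5, P10 and P15.

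In organoids labelled Mist1+ (WT P5) against Mist1- P5, Krt20, Krt19, Krt8, Krt7 and Krt80 were higher and Krt4 was lower. Of the 8 tested members 5 rose and 1 fell, with a median log2 difference of 0.41 beside 0.00 over all genes, of which 18.8% rose and 16.2% fell. The WT P5 libraries also serve in the KO comparison at passage 5, so these values are not independent of it. Krt20 had 37.7, 39.1 and 42.2 FPKM in WT P5, against 13.6, 12.8 and 13.8 in Mist1- P5, and was 1.63 ± 0.07 higher on the log2 scale (edgeR adjusted p = 1.18e-13). Krt19 had 1535, 1529 and 1553 FPKM in WT P5, against 994, 1011 and 996 in Mist1- P5, a log2 difference of 0.68 ± 0.12 (edgeR adjusted p = 0.000111). These groups did not overlap for either gene. Krt8 was at 1278, 1268 and 1271 FPKM in WT P5, against 947, 965 and 959 in Mist1- P5 (0.47 ± 0.10, edgeR adjusted p = 0.000582). Krt7 was at 300.4, 305 and 299 FPKM in WT P5, against 228, 229 and 234 in Mist1- P5 (0.45 ± 0.10, edgeR adjusted p = 0.00125).

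Krt80 had 12.6, 13.3 and 12.5 FPKM in WT P5, against 9.61, 10.9 and 10.2 in Mist1- P5, a log2 difference of 0.38 ± 0.06 (edgeR adjusted p = 2.09e-05). Krt18 had 1044, 1068 and 1056 FPKM in WT P5, against 1012, 1007 and 1017 in Mist1- P5, and its difference of 0.12 ± 0.12 did not pass (adjusted p = 0.455; 3.52e-12 with the WT P15 libraries out of the fit). Krt23 had 65.1, 59.0 and 62.9 FPKM in WT P5, against 60.9, 62.7 and 65.3 in Mist1- P5, which overlap (0.05 ± 0.09, adjusted p = 0.733). Krt4 went the other way, with 5.60, 4.55 and 4.71 FPKM in WT P5, against 6.57, 6.94 and 7.39 in Mist1- P5 (-0.43 ± 0.16, edgeR adjusted p = 0.0369). That call was lost in 5 of 16 alternatives, with adjusted p up to 0.127. Of the 18 tested squamous markers 8 rose and 2 fell, and of the 18 tested glandular markers 14 rose and 4 fell. Gkn3, a gastrokine, was at 312 FPKM in WT P5 and 11.3 FPKM in Mist1- P5.

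In WT organoids at passage 10 against passage 5, Krt4 alone was called, with a log2 change of -1.26 ± 0.18 at passage 10 (edgeR adjusted p = 0.000126), and 0 members rose, beside 2.84% of all genes that fell and 2.04% that rose. With WT P15 out of the fit 7 members were called, Krt20 higher (0.19) and the others lower, among them Krt7 (-0.27), beside 9.19% of all genes that rose and 9.27% that fell in that fit. By passage 15, Krt4 was 4.33 ± 0.15 higher than at passage 5 (edgeR adjusted p = 1.80e-15), Krt20 changed by -0.46 ± 0.07 (1.04e-05) and Krt80 by -0.44 ± 0.06 (3.48e-06). That is 1 member risen and 2 fallen, beside 24.7% and 26.6% of all genes. Krt7, Krt8, Krt18, Krt19 and Krt23 had log2 changes of -0.11, -0.14, -0.09, 0.10 and 0.17, none called.

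The values of the abundant keratins in WT P15 rest on which libraries are used. Replicate 1 had the highest Krt7, Krt8, Krt18, Krt19 and Krt23 of the 21 libraries. Without it, 7 of 9 tested members were called, 1 risen and 6 fallen, beside 22.4% and 24.3% of all genes, the ninth tested being Krt13: Krt7 changed by -0.31, Krt8 by -0.34, Krt18 by -0.35 and Krt19 by -0.16, and Krt4 by 4.18. Without replicate 2, 5 of 9 were called, 3 risen and 2 fallen, beside 28.2% and 31.8% of all genes. Other epithelial lists shifted in WT P15 too. Of 18 tested glandular markers 14 fell and 3 rose, and Gata6, a regulator of gastric epithelium, averaged 0.140 FPKM in WT P15 and 7.14 in WT P5. Of 18 tested squamous markers 7 rose and 8 fell. With WT P15 replicate 1 left out, 15 of 19 glandular markers fell and 3 rose, and 7 of 19 squamous markers rose and 7 fell. In that fit the 3 glandular markers that rose were Atp4a (log2 change 2.05), Aqp5 (1.40) and Gata4 (0.21), while Gata6 changed by -5.93.

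In KO organoids no member was called between passages 10 and 5 by edgeR, and none by DESeq2, while 3.89% of all genes rose and 3.72% fell. Krt23 alone had an unadjusted edgeR p under 0.05, with a log2 change of -0.23 (edgeR adjusted p = 0.148). With WT P15 out of the fit 5 members were called, Krt7 and Krt19 at 0.15 and 0.10 and Krt8, Krt18 and Krt23 at -0.09, -0.14 and -0.23, beside 11.7% of all genes that rose and 10.5% that fell in that fit. At passage 15 against passage 5 more of them differed: 7 of 8 tested members fell and 1 rose, beside 7.20% and 5.77% of all genes. Krt4 changed by -1.71 ± 0.23 (edgeR adjusted p = 1.48e-05), Krt7 by -0.73 ± 0.10 (2.14e-05) and Krt80 by -0.52 ± 0.06 (1.79e-06). Krt18, Krt19, Krt8 and Krt23 changed by -0.42, -0.42, -0.34 and -0.34 (edgeR adjusted p = 0.0191, 0.0216, 0.0213 and 0.0132). Krt20 was the member that rose, with 18.5, 17.3 and 17.3 FPKM in KO P15, against 15.7, 14.05 and 13.7 in KO P5 (0.29 ± 0.07, edgeR adjusted p = 0.00820). Leaving out 1 library left 3 to 6 members called, beside 4.03% to 4.10% of all genes that rose and 5.64% to 5.81% that fell. Krt4, Krt7 and Krt80 were called in all of those fits. Without KO P15 replicate 1 the edgeR adjusted p of Krt8, Krt18, Krt19, Krt20 and Krt23 was above the threshold, up to 0.0733. All of those fits kept the WT P15 libraries and their spread. With WT P15 left out of the fit, or with only the groups compared, no member lost its call. Those fits called 4492 and 4606 of all genes in place of 1960.

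Whether the KO difference itself changed with passage was tested as an interaction, in which a positive value means that KO over WT was higher at the later passage. Between passages 10 and 5, Krt4 (1.25 ± 0.26, edgeR adjusted p = 0.00460) and Krt80 (0.28 ± 0.08, 0.0454) were positive, 2 members beside 3.13% of all genes, and 0 were negative, beside 2.81%. With WT P15 left out of the fit 4 were positive and 1 negative, beside 10.6% and 9.58% of all genes: the added ones were Krt7 at 0.42 (edgeR adjusted p = 5.12e-45), Krt19 at 0.26 (2.65e-24) and Krt8 at -0.06 (0.0353). The Krt80 call was lost in 16 of 22 alternatives. Between passages 15 and 5, 4 members were negative and 1 positive, beside 18.6% and 19.7% of all genes. They were Krt4 at -6.04 ± 0.26 (edgeR adjusted p = 2.17e-13), Krt7 at -0.62 ± 0.14 (0.00176), Krt19 at -0.52 ± 0.17 (0.0193) and Krt23 at -0.51 ± 0.13 (0.00352), with Krt20 at +0.75 ± 0.10 (4.85e-06). Without WT P15 replicate 1 the same 5 were called, with Krt7 at -0.41, Krt19 at -0.26 and Krt23 at -0.35, beside 20.3% of all genes positive and 19.3% negative. For Krt20, KO libraries were higher and WT libraries lower at passage 15 than at passage 5. Krt8, Krt18 and Krt80 had values of -0.20, -0.33 and -0.08 that did not pass. Krt8 was 0.0028 without WT P15 replicate 1 and -0.34 without replicate 2 (edgeR adjusted p = 0.00344), and Krt18 was -0.07 without replicate 1 and -0.50 without replicate 2 (0.00185), beside 27.0% of all genes positive and 24.5% negative without replicate 2.

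For members that changed at least 2-fold in some comparison, genes with the most similar pattern over the 21 libraries were read from 9998 expressed candidates. Pearson's r of log2 values was used, which does not compare levels or the size of a change. By group mean, Dyrk3 ran from 3.40 to 7.68 FPKM and Krt4 from 0.887 to 105.9. The 21 libraries fall into 7 groups, so these r describe group patterns and carry no p. Nearest to Krt7 were Msln, the surface protein mesothelin (r = 0.979), and the actin-binding Cnn2 (0.957). Msln averaged 237 FPKM in KO P15 and 763 in WT P5. Of the 6 mesothelial markers, Wt1 and Upk3b had 9 and 39 counts in all libraries. In KO against WT at passage 15 without WT P15 replicate 1, 4 of the 6 were tested, of which 2 fell and 1 rose. Msln (-1.26) and Upk1b (-10.9) fell and Muc16 (4.85) rose, beside 3377 of all genes that fell and 3159 that rose in that fit. Nearest to Krt19 were Plac8 (0.978) and the cell-cycle inhibitor gene Cdkn2a (0.974), which averaged 8.04 FPKM in KO P15 and 30.6 in WT P15. Nearest to Krt20 were the tryptophanyl-tRNA synthetase gene Wars (0.983) and Fam83e (0.978), and nearest to Krt4 were the kinase gene Dyrk3 (0.969) and the calmodulin-like Calml4 (0.960). Among the members, Krt8 and Krt19 had r = 0.946 and Krt7 and Krt19 had r = 0.937, whereas Krt18 and Krt20 had r = 0.382 and Krt4 and Krt80 had r = 0.127.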

How the data were processed

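Bulk RNA was sequenced from 27 samples, and the deposited table holds 21 of them, the organoid libraries; the other 6, sorted cells, are not analysed here. Per the submitters' processing notes, cutadapt 1.9.1, HISAT2 2.2.1, HTSeq 0.6.1 and GRCm38.p5 were used, and the strand setting is not given in the sources used here. The authors deposited read counts per gene and FPKM, and 100% of FPKM values matched the count over the deposited exonic length and library total within 0.006. The table's gene coordinates differ from GENCODE M21 for all 10 members and are not printed.

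Genes were kept by filterByExpr of edgeR 4.0.16 (R 4.3.3; minimum count 10, minimum total 15), leaving 15115 genes with 99.91% of counts. Counts were scaled by TMM (factors 0.957 to 1.04) and tested in 1 quasi-likelihood fit over all 7 groups, with Benjamini-Hochberg adjustment over all genes and a threshold of 0.05; SE is the log2 change over the root of the F statistic. The script was tested on simulated counts with the same spread in every group, so that test does not cover the wide spread of WT P15. The interval of a summed count is exact Poisson.

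The members and gene lists were chosen with earlier results of these data known. All members are named. From a list, up to 2 genes by smallest adjusted p and the defining markers near 0 are named by that rule. Cdh1, Tgm1, Cnfn, Cdx2, Gkn2, Gkn3, Gata6, Gata4, Atp4a, Aqp5, Upk1b and Muc16 were named partly after their values were seen. Nearest genes needed a mean of 5 CPM (counts per 1000000), and log2(CPM + 1) was used. Alternatives were DESeq2 size factors, no filter, DESeq2 1.42.0, limma 3.58.1 on log2(FPKM + 1) and log2(FPKM + 0.1), only the groups compared, no WT P15, a replicate block, no robust moderation, each library left out, and, added after seeing the data, library totals alone and the list counts without WT P15 replicate 1.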

Additional observations from a re-analysis of the deposited data

Results flagged for a closer look

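The test of the interaction found 7 cases in which the difference between KO and WT organoids changed with passage. Between passages 10 and 5, the log2 interaction was 1.25 for Krt4 (adjusted p = 0.00460) and 0.28 for Krt80 (adjusted p = 0.0454). Krt80 was called in 6 of 22 alternatives, Krt4 in all 22. Between passages 15 and 5 it was -6.04 for Krt4 (adjusted p = 2.17e-13), -0.62 for Krt7 (adjusted p = 0.00176), -0.52 for Krt19 (adjusted p = 0.0193), -0.51 for Krt23 (adjusted p = 0.00352) and 0.75 for Krt20 (adjusted p = 4.85e-06). Krt19 was called in 20 of 21 alternatives and the other 4 in all 21. The 5 cases between passages 15 and 5 use the WT P15 libraries, and without their replicate 1 the values were -5.89, -0.41, -0.26, -0.35 and 0.80 in the order Krt4, Krt7, Krt19, Krt23, Krt20.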

How the results depend on the processing

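For single members, 713 values under the alternatives other than leaving out a library kept their direction and call, 49 became called, 7 lost the call and 7 changed sign; with a library left out the numbers were 529, 7, 35 and 5. The sign changes were of values near 0 that were not called: Krt80 in KO against WT at passage 10 (-0.06) was 0.0102, 0.0110 and 0.0115 with limma at both pseudocounts and with library totals alone, and Krt23 in Mist1+ against Mist1- (0.05) was -0.000273, -0.0146, -0.0148 and -0.0141 with no filter, limma at both pseudocounts and library totals alone. With a library left out, values ran from -0.16 to 0.27 for Krt19, -0.31 to 0.0384 for Krt7 and -0.35 to 0.0755 for Krt18 in WT passage 15 against 5, from -0.0890 to 0.13 for Krt4 in KO passage 10 against 5, and from -0.34 to 0.0028 for Krt8 and -0.50 to -0.07 for Krt18 in the interaction at passage 15, where both were called at their lowest value, without WT P15 replicate 2. In WT passage 15 against 5, Krt19 was called at its lowest value, without WT P15 replicate 1, and at its highest, without replicate 2.

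The number of members called changed as follows. In WT passage 10 against 5 (1 called) it was 2 with no filter, 2 with DESeq2, 8 with only the groups compared and 7 without WT P15. With only the groups compared 2827 of all genes were called, and without WT P15 2766, in place of 738. In WT passage 15 against 5 (3 called) it was 5 with no filter, 5 with limma and a pseudocount of 1, and 3 to 7 with a library left out. In KO passage 10 against 5 (0 called) it was 5 with only the groups compared and 5 without WT P15, beside 3059 and 3330 of all genes in place of 1150. In KO passage 15 against 5 (8 called) it was 3 to 6 with a library left out, beside 1500 to 1523 of all genes in place of 1960. For the interaction at passage 10 (2 called) it was 1 with limma and a pseudocount of 1, 4 with only the groups compared, 5 without WT P15, 1 with library totals alone, and 1 to 2 with a library left out.

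Over all genes, counts moved by more than 1.5 times with only the groups compared or without WT P15 in the fit: 7035 and 7095 in place of 4547 for KO against WT at passage 5, 2827 and 2766 in place of 738 for WT passage 10 against 5, 3059 and 3330 in place of 1150 for KO passage 10 against 5, 4606 and 4492 in place of 1960 for KO passage 15 against 5, and 2951 and 3018 in place of 897 for the interaction at passage 10. With only the groups compared, KO against WT at passage 15 called 2735 in place of 7396 and WT passage 15 against 5 called 3631 in place of 7761. In these fits the variation of WT P15 enters alone or not at all.

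With the replicate block, 2 members in place of 1 were called in WT passage 10 against 5, the added one being Krt80 (adjusted p = 0.0422), and no other member count moved by more than 1.5 times. Samples with the same number did not deviate together: the correlations of deviations were -0.0257 to 0.0506. No shared deviation by number was found, and whether equal numbers mark the same culture, mouse or batch is not known. The main limits are the spread of WT P15, 3 libraries per group of unknown origin, and few counts for Krt13 and Krt17.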

Other observations

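The other intermediate filament genes were measured from a list of 13, of which 7 were tested. The nuclear lamins were the abundant ones. Lmnb1, a B-type lamin of proliferating cells, averaged 48.9, 56.4 and 46.0 FPKM in KO P5, P10 and P15, against 32.6, 32.6 and 61.1 FPKM in WT P5, P10 and P15. It was higher in KO at passages 5 and 10 (log2 change 0.50 and 0.72, edgeR adjusted p = 1.52e-07 and 6.61e-10) and lower at passage 15 (-0.41, edgeR adjusted p = 1.40e-06). Lmna, the A-type lamin, did not pass the test at passages 5 and 10 (edgeR adjusted p = 0.0558 and 0.298) and fell at passage 15 (-1.07, edgeR adjusted p = 4.91e-08), where it averaged 17.9 FPKM in KO P15 and 37.6 FPKM in WT P15. Nefh, a neurofilament gene, averaged 0.683, 0.463 and 0.110 FPKM in KO P5, P10 and P15, against 3.32, 2.35 and 0.413 FPKM in WT P5, P10 and P15, and fell at each passage. Vim, the filament of mesenchymal cells, stayed under 0.40 FPKM as a mean in every group. With WT P15 replicate 1 left out, the passage 15 log2 changes were -0.43 for Lmnb1, -0.86 for Lmna and -1.95 for Nefh, all called (edgeR adjusted p = 4.68e-10, 1.91e-16 and 7.19e-05).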
